A study of Mus musculus with 6 samples.

Results

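The mitochondrial ribosomal protein genes were taken as the protein-coding mouse genes whose GENCODE M21 symbol begins with Mrpl or Mrps followed by a digit. The rule found 78 genes, 49 named for the large subunit (Mrpl) and 29 for the small subunit (Mrps), among the 21896 protein-coding genes and 53458 genes of all kinds in the expression tables. They lie on 17 chromosomes. A further 5 symbols of this form (Mrpl23-ps1, Mrpl48-ps, Mrps36-ps1, Mrps36-ps2 and Mrps36-ps3) are processed pseudogenes and were not counted as members. RNA had been sequenced from leukemic blast cells sorted from the bone marrow of transplanted C57/BL6 mice with acute myeloid leukemia, by the gate Ter119-, B220-, CD3-, Mac1 low, Gr1 low and CD45.2+. Both groups carried the Cebpa-/p30 genotype, in which the only Cebpa allele left makes the short p30 form of the myeloid transcription factor C/EBP alpha. They differed at Asxl1, which encodes a chromatin regulator. One group was Asxl1WT (3 libraries, WT 1 to 3) and the other was homozygous for a point mutation, Asxl1G643W/G643W (3 libraries, G643W 1 to 3). The labels do not say whether the libraries of a group came from separate leukemias or from recipients of one leukemia. Every p-value below sets a difference between genotypes against the spread between these libraries. Whether it extends to other leukemias cannot be told.

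The mitochondrial ribosome makes the few proteins that mitochondrial DNA encodes, all of them core parts of the respiratory chain and the ATP synthase. Its RNAs come from mitochondrial DNA, whereas all of its proteins are encoded in the nucleus, made on cytosolic ribosomes and imported. Some of these proteins have a counterpart in the bacterial ribosome and others are found only in mitochondria. Acute myeloid leukemia cells are known to depend strongly on mitochondrial respiration and on mitochondrial translation.

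The libraries held between 61167075 and 101189225 estimated reads. Transcripts of Asxl1 were present in all 6 libraries, at 3.68 to 7.15 TPM (transcripts-per-million units, corrected for transcript length) in WT and 13.7 to 20.2 TPM in G643W; a point mutation need not change the level, so this does not check the labels. Cebpa stood at 26.9 to 64.5 TPM in WT and, over a wider range, at 5.93 to 59.0 TPM in G643W. Each of the 6 blast and progenitor markers reached at least 1 TPM in some library. Kit, Cd34, Mpo, Myb and Ptprc did so in all, Mpo at 173 to 2181 TPM and Myb at 44.7 to 104 TPM. Flt3 lay below 1 TPM in all 3 G643W libraries. The 6 summed to 515, 1288 and 1854 TPM in WT 1, 2 and 3 and to 2380, 364 and 1011 TPM in G643W 1, 2 and 3, so the genotypes overlapped. Cd34 and Flt3 were lower in every G643W library by TPM, against 5.84% of all genes tested. The log2 difference was below 0 for 3 of the 6, and none passed edgeR. Markers of other cells were also present. The 12 neutrophil markers summed to 2576, 13522 and 78527 TPM in WT 1, 2 and 3 and to 16135, 177091 and 108926 TPM in G643W 1, 2 and 3, and none of the 12 was at 0 in any library. By this sum WT 1 was the lowest library and G643W 2 the highest, and the genotypes overlapped. The log2 difference was above 0 for all 12, with a median of 1.66 and a median SE of 1.29. None had an edgeR unadjusted p under 0.05 (against 9.66% of all genes tested), and DESeq2 called none. The dendritic and erythroid markers were lower in level, but their sums did not overlap between genotypes. The 6 dendritic markers summed to 22.2, 53.3 and 12.9 TPM in WT against 4.94, 4.83 and 7.37 TPM in G643W. Of these, Flt3, also listed as a blast marker, Cd209a and Siglech were lower in every G643W library by TPM, against 5.84% of all genes tested. These 3 had an edgeR unadjusted p under 0.05 and passed DESeq2 but not edgeR, with Cd209a furthest from 0 at a log2 difference of -7.27. The other 3, Xcr1, Zbtb46 and Itgax, had a higher mean TPM in G643W than in WT. Their log2 differences by counts were 0.20, -0.13 and -0.25. The 8 erythroid markers summed to 12.4, 5.61 and 1.86 TPM in WT against 20.1, 19.4 and 50.8 TPM in G643W, and 4 of them were higher in every G643W library by TPM, against 9.61% of all genes tested. The globin genes Hbb-bs and Hba-a2 were listed at 0 in at least 1 library. The 9 monocyte and macrophage markers had overlapping sums of 1941 to 3986 TPM in WT and 2712 to 3465 TPM in G643W, most of it from Ly6c2. The log2 difference was below 0 for 8 of the 9 and its median was -1.33. None passed edgeR, 3 had an unadjusted p under 0.05 and DESeq2 called 1. The sums of the natural killer, T cell, B cell and megakaryocyte markers overlapped between genotypes, the last 3 at no more than 16.5 TPM.

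Levels were first compared among the 78 genes within the libraries, in TPM, which accounts for transcript length. Summed over all transcripts of a gene, the highest mean levels over the 6 libraries belonged to Mrpl18 (323 TPM), Mrps18c (242 TPM) and Mrpl2 (225 TPM), and the lowest to Mrpl23 (1.83 TPM), Mrpl11 (3.52 TPM) and Mrps31 (4.15 TPM). The order at the top rested on very short annotated transcripts. For Mrpl18, 92.3% of the TPM but only 20.9% of the reads were assigned to transcripts shorter than 300 bases. The same held for Mrpl2, with 91.2% of the TPM and 14.0% of the reads, and for Mrps18c, with 83.5% and 30.8%. In all, 6 members drew more than 50% of their TPM from transcripts this short, the others being Mrpl52, Mrps21 and Mrpl38. TPM divides the reads of a transcript by its effective length, which is small for a transcript close to the fragment length.

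When only transcripts annotated as protein-coding were summed, the leading genes were Mrps21 (202 TPM), Mrpl33 (115 TPM), Mrpl17 (74.95 TPM) and Mrps23 (70.5 TPM), while Mrpl18 moved from rank 1 to rank 18, Mrps18c from 2 to 16 and Mrpl2 from 3 to 29. The median member stood at 11.5 TPM on this scale. For 26 of the 78 members, less than 50% of the TPM lay on protein-coding transcripts. Mrpl51, picked out as the member with the lowest such share, stood at 46.0 TPM by its sum over all transcripts and at 0.98 TPM by its coding transcripts, and Mrps24 at 28.8 and 0.64 TPM. The annotated coding transcript of Mrpl51 is 3427 bases long and had between 0.73 and 1.20 TPM, whereas a 580-base retained-intron transcript had between 15.4 and 32.2 TPM. The coding transcripts carried 70.3% to 73.9% of the members' reads and 44.5% to 51.6% of their TPM in the 6 libraries. How far these shares reflect spliced coding mRNA, and how far the annotation, was not tested.

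**Figure D1:**
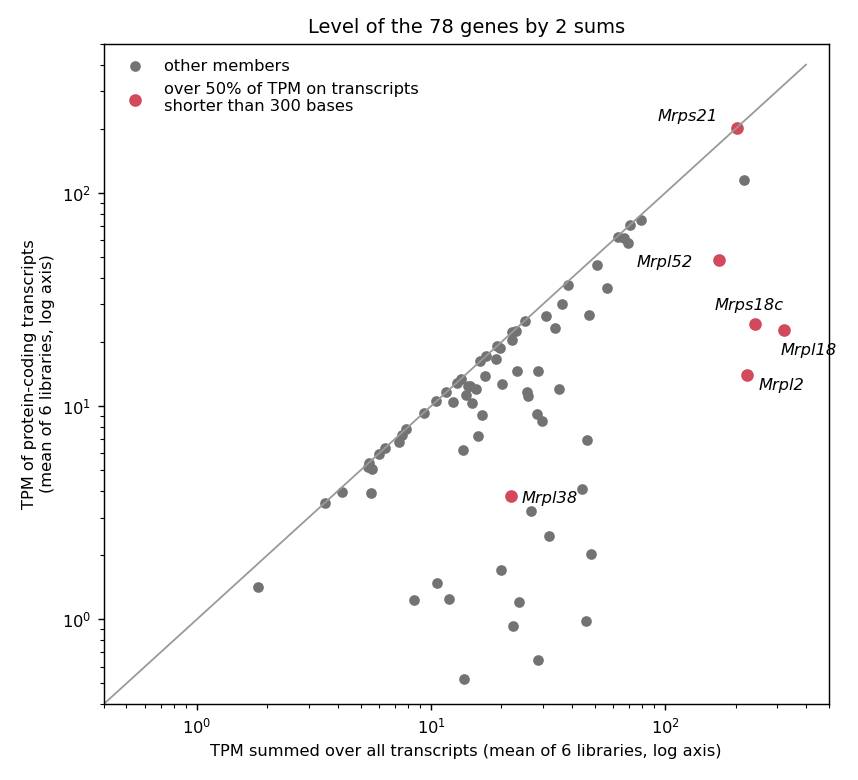
Mean TPM over the 6 libraries of each of the 78 genes, summed over all transcripts (x axis, log scale) and over protein-coding transcripts (y axis, log scale); the line marks equality. The 6 genes in red draw more than 50% of their TPM from transcripts shorter than 300 bases, and Mrpl18, Mrps18c and Mrpl2 lie far below the line.

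Summed over the 78 genes, the level was 3043, 3769 and 3051 TPM in WT 1, 2 and 3 and 3554, 2507 and 2714 TPM in G643W 1, 2 and 3. WT 2 was the highest library and G643W 2 and 3 were the lowest, while G643W 1 lay between WT 3 and WT 2, so the genotypes overlapped. The protein-coding transcripts alone summed to 1571, 1864 and 1488 TPM in WT and to 1724, 1116 and 1326 TPM in G643W, with the same overlap. To weight all genes equally, log2 counts-per-million values (CPM, with library sizes scaled by the TMM method) were centred on each gene's mean over the 6 libraries and averaged over the members. These averages were 0.05, 0.46 and 0.07 in WT (mean 0.20, SD 0.23, n = 3) and 0.14, -0.45 and -0.27 in G643W (mean -0.20, SD 0.30, n = 3). G643W 1 again lay above 2 of the 3 WT libraries. In bulk RNA of this kind, fewer cells of a type and less RNA per cell cannot be told apart.

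**Figure D2:**
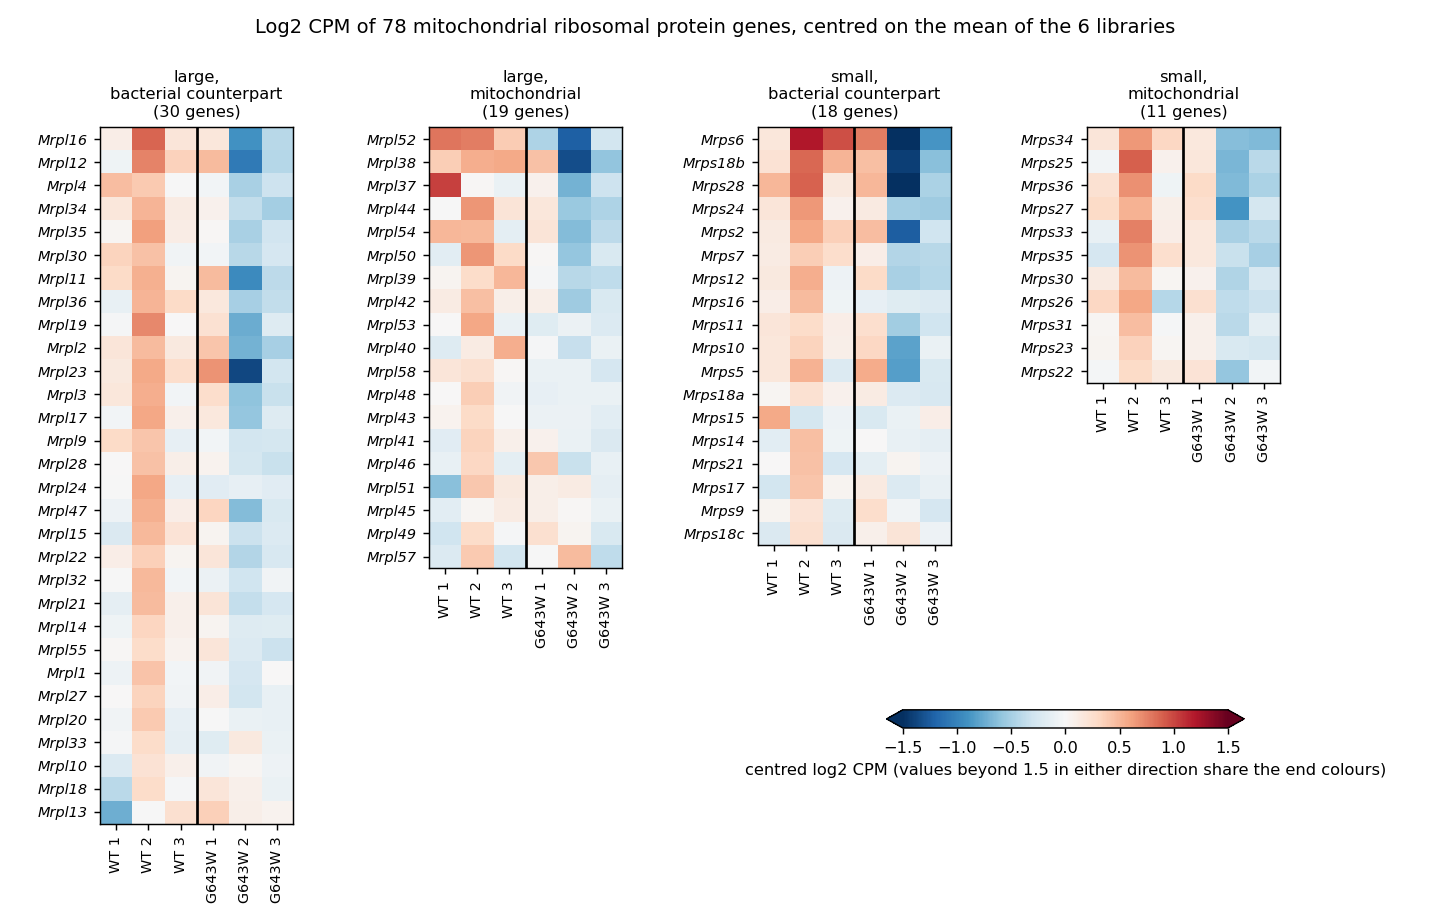
Log2 CPM of the 78 genes, centred on each gene's mean over the 6 libraries (color scale), with genes in rows by subunit and by presence of a bacterial counterpart, and libraries in columns. WT 2 is the reddest column and G643W 2 the bluest, and G643W 1 resembles the WT columns in most rows; WT 2 was the highest library for 63 genes and G643W 2 the lowest for 47.

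The order of the libraries recurred gene by gene. WT 2 was the highest of the 6 libraries for 63 of the 78 genes (80.8%, against 22.5% of all genes tested), and G643W 2 or G643W 3 was the lowest for 63 (against 35.4%). G643W 2 lay below all 3 WT libraries for 60 genes and so did G643W 3 (76.9% each, against 33% and 29.5% of all genes). G643W 1 lay within the WT range for 57 genes (73.1%, against 52.5%), below it for 16 (20.5%, against 23.9%) and above it for 5 (6.41%, against 23.6%). The median coefficient of variation between libraries of one genotype was 20.3% in WT and 20.6% in G643W, against 32.2% and 31.0% over all genes tested. Within the G643W group the level in G643W 2 was a median of 0.706 times that in G643W 1, against 0.914 over all genes tested, and it was below 0.5 times for 13 members (16.7%, against 20.7% of all genes) and above 1 for 11 (14.1%, against 44.8%). The sums of the neutrophil markers above were also highest in G643W 2 and G643W 3, but they were lowest in WT 1 and not in WT 2. Averaged as centred log2 CPM, the dendritic markers stood at 1.03, 1.59 and 0.66 in WT and at -1.03, -1.23 and -1.02 in G643W, with WT 2 highest and G643W 2 lowest, as for the members, but with G643W 1 well below all 3 WT libraries. The monocyte and macrophage markers stood at 1.63, 0.49 and -0.07 in WT and at -0.56, -1.65 and 0.16 in G643W, again with G643W 2 lowest but with WT 1 highest. The 6 blast and progenitor markers stood at 0.01, 0.75 and 0.55 in WT and at 0.26, -1.28 and -0.29 in G643W. As for the members, WT 2 was highest, G643W 2 and 3 were lowest and G643W 1 lay within the WT range. Gene by gene, WT 2 was the highest library for 1 of these 6 markers and G643W 2 the lowest for 4. The part of any of these markers in the members' values was not tested.

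The genotypes were compared gene by gene with edgeR's quasi-likelihood test over 20654 genes, with Benjamini-Hochberg adjustment over all of them. None of the 78 members passed an adjusted p of 0.05, against 25 genes or 0.121% of all genes tested; leaving out WT 2 brought that number to 0. At an unadjusted p under 0.05 there were 3 members (Mrpl52, Mrpl4 and Mrps34), which is 3.85% of them against 9.66% of all genes. DESeq2 also called no member, against 1.72% of the 22365 genes it tested, and limma on log2(TPM + 1) called none, against 0.183% of 13128. Without G643W 1, 21 members had an edgeR unadjusted p under 0.05, which is 26.9% of them against 20.9% of the 21644 genes tested in that fit, and still none passed after adjustment, the lowest adjusted p being 0.137.

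The direction of the estimates was nevertheless uneven. The log2 difference, G643W minus WT, was negative for 72 of the 78 members (92.3%), against 50.8% of all genes tested. Its median was -0.35 over the members, with the middle 50% of them between -0.53 and -0.22, and -0.01 over all genes. The 49 genes named Mrpl had a median of -0.34 and the 29 named Mrps of -0.36. Of the latter, Mrps18a and Mrps30 encode large subunit proteins and Mrps36 a protein of another complex. With Mrps18a and Mrps30 counted in the large subunit and Mrps36 in neither, the medians were -0.34 over 51 genes and -0.35 over 26. By the presence of a bacterial counterpart, the medians were -0.35 with and -0.34 without one among the genes named Mrpl (30 and 19 genes), and -0.34 and -0.47 among those named Mrps (18 and 11 genes, with Mrps18a in the first and Mrps30 and Mrps36 in the second). The genes share their libraries, so these counts are not independent observations. Without WT 2 the median over the members was -0.19, and without G643W 1 it was -0.48.

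A standard error of 0.28, the median over the members, limits what the comparison can show. The 95% interval of the log2 difference included 0 for 75 of the 78 genes. For 40 genes the whole interval lay within a factor of 2 in either direction, and for 38 it reached a level in G643W of 2-fold lower or beyond. The smallest log2 difference, in either direction, of any gene that passed the threshold in this comparison was 2.57, larger than that of any member.

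**Figure D3:**
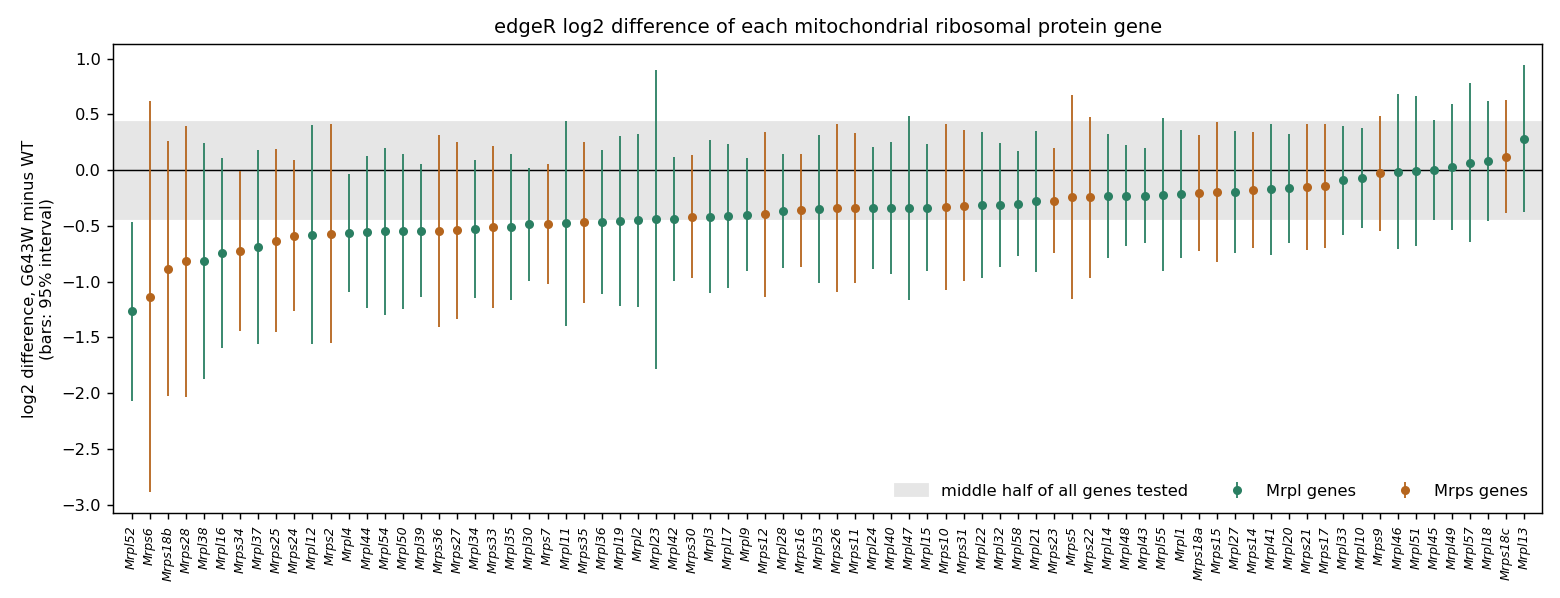
edgeR log2 difference, G643W minus WT, of each of the 78 genes (points, ordered by value) with its 95% interval (bars); the gray band holds the middle 50% of all genes tested. The points run from -1.27 for Mrpl52 to 0.28 for Mrpl13, and 75 of the 78 bars cross 0.

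The levels did not separate the genotypes completely for most members. By TMM-scaled CPM, 14 members were lower in every G643W library than in every WT library (17.9%, against 8.89% of all genes), namely Mrpl4, Mrpl24, Mrpl32, Mrpl34, Mrpl35, Mrpl39, Mrpl42, Mrpl43, Mrpl48, Mrpl52, Mrpl58, Mrps7, Mrps16 and Mrps34. None was higher in every G643W library, against 7.05% of all genes. The count of 14 moved with the scale and with single libraries: it was 2 by TPM (Mrpl52 and Mrpl58), which is 2.56% against 5.84% of all genes, and 8 when the fit used protein-coding genes alone (10.3%, against 7.94%). With fewer libraries, groups fail to overlap more often for any gene. Without WT 1 the count was 29 (37.2%, against 14% of all genes in that fit), and without G643W 1 it was 49 (62.8%, against 20.3%). The count of members higher in every G643W library was 2 without WT 2 and 1 without WT 3, against 9.9% and 17.4% of all genes.

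Among proteins of the large subunit found only in mitochondria, Mrpl52 (chr14:54426909-54429756, GRCm38) had the lowest p of all members. It stood at 228, 254 and 197 TPM in WT 1, 2 and 3 and at 126, 67.0 and 150 TPM in G643W 1, 2 and 3, so every G643W library was below every WT library. The log2 difference was -1.27 (SE 0.34, 95% interval -2.07 to -0.46), with an edgeR unadjusted p of 0.0073 and an adjusted p of 0.454. A retained-intron transcript of 134 bases carried most of the TPM, at 155, 183 and 143 TPM in WT against 88.8, 47.1 and 111 TPM in G643W. The longer coding transcript of 418 bases was also lower in every G643W library than in every WT library, at 36.6, 31.0 and 26.7 TPM in WT against 15.0, 7.40 and 17.0 TPM in G643W. Counting coding transcripts alone, Mrpl52 was 1 of 3 members (3.85%, against 6.2% of 14069 genes with coding transcripts), with Mrpl4 and Mrps14, whose 3 G643W values all lay below the 3 WT values.

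Mrpl4, a bacterial-type protein of the large subunit (chr9:21002738-21008839), stood at 34.5, 32.9 and 28.1 TPM in WT against 29.8, 18.3 and 12.7 TPM in G643W. By TPM, G643W 1 lay between WT 2 and WT 3, and by CPM it lay just below the lowest WT library, at 32.1 against 33.0 CPM. The log2 difference was -0.56 (SE 0.23), with an edgeR adjusted p of 0.506. Mrpl30, also of bacterial type (chr1:37890477-37898535), stood at 83.3, 81.3 and 66.1 TPM in WT against 68.1, 44.4 and 58.0 TPM in G643W, with a log2 difference of -0.49 (SE 0.22). The lowest WT library and the highest G643W library overlapped. Mrpl16, which in bacteria lies by the tRNA binding sites, stood at 11.7, 17.9 and 12.5 TPM in WT against 13.4, 5.52 and 8.78 TPM in G643W, and Mrpl39 at 5.35, 6.30 and 7.53 against 5.92, 4.20 and 3.91 TPM. Their log2 differences were -0.74 (SE 0.36) and -0.54 (SE 0.25), and the edgeR adjusted p was above 0.05 for both.

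The stalk of the large subunit, which recruits translation factors, is built from Mrpl10 and Mrpl12 on a base that holds Mrpl11. Mrpl12 also has been reported to bind the mitochondrial RNA polymerase. Its level was 20.1, 34.0 and 28.2 TPM in WT against 31.1, 9.44 and 16.9 TPM in G643W, with G643W 1 inside the WT range and the other G643W libraries below it. Mrpl11 had G643W 1 as its highest library and the other G643W libraries as its lowest, 4.08, 4.38 and 3.43 TPM in WT against 4.97, 1.61 and 2.66 TPM in G643W. Mrpl10 differed little between libraries, at 14.9, 18.0 and 18.7 TPM in WT against 17.6, 16.4 and 17.3 TPM in G643W. The log2 differences of Mrpl12, Mrpl11 and Mrpl10 were -0.58 (SE 0.41), -0.48 (SE 0.39) and -0.07 (SE 0.19), and that of Mrpl10 turned positive under several alternatives. The intervals of the 3 overlapped, and the difference between them was not tested.

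Mrpl45, which lies near the exit of the peptide tunnel and anchors the ribosome to the inner membrane, stood at 9.38, 8.94 and 12.9 TPM in WT against 12.8, 9.31 and 9.84 TPM in G643W. The libraries of the genotypes were interleaved, and the log2 difference was 0.00 (SE 0.19, 95% interval -0.45 to 0.45). Mrpl58, a peptidyl-tRNA hydrolase that can release stalled ribosomes, was lower in each G643W library, at 45.6, 41.9 and 36.2 TPM against 58.2, 49.4 and 47.9 TPM in WT (log2 difference -0.30, SE 0.20). Mrpl44, a protein of the large subunit in which mutations cause a human cardiomyopathy, stood at 12.8, 17.8 and 14.4 TPM in WT against 15.4, 7.91 and 9.43 TPM in G643W, so that G643W 1 again lay among the WT libraries. Only 6 members had a log2 difference at or above 0, and the highest was that of Mrpl13, a bacterial-type protein of the large subunit. It stood at 21.05, 31.2 and 39.4 TPM in WT against 48.2, 34.3 and 37.4 TPM in G643W (log2 difference 0.28, SE 0.28). WT 1 was the low library there, and the genotypes overlapped. The other 5 were Mrps18c, Mrpl18, Mrpl57, Mrpl49 and Mrpl45, between 0.00 and 0.12, and for Mrpl18, Mrpl57, Mrpl49 and Mrpl45 the sign turned when WT 1 was left out.

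**Figure D4:**
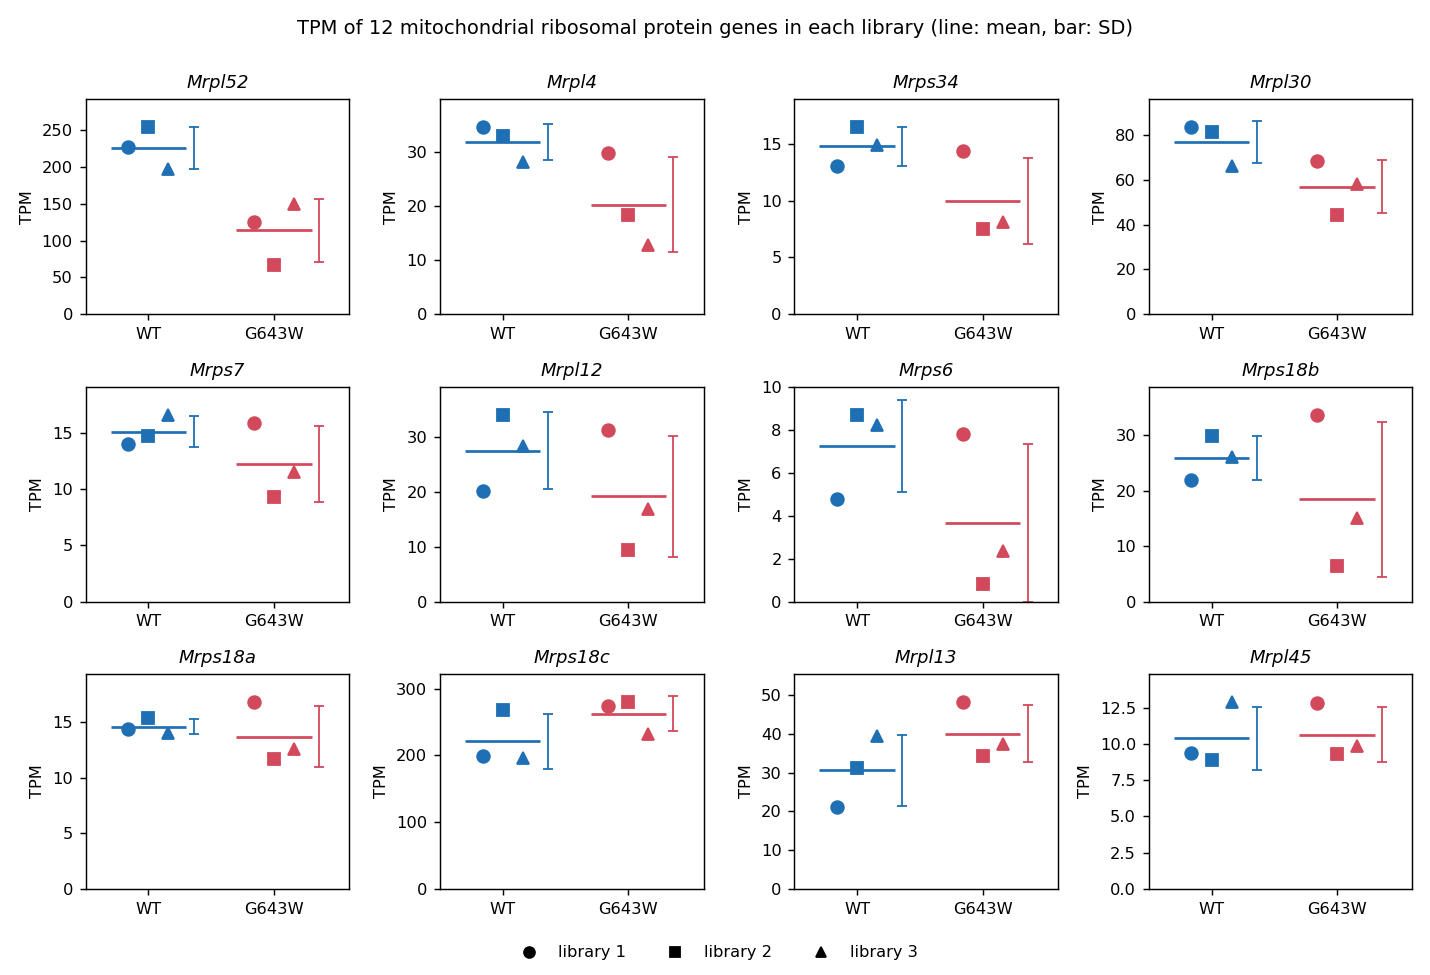
TPM of 12 members in each library (points, shaped by library number), with the mean of each genotype (line) and its SD (bar, n = 3). Mrpl52 is the gene of the 12 with no overlap between genotypes on this scale, and for Mrps6, Mrps18b and Mrpl12 G643W 1 sits among or above the WT libraries while G643W 2 and 3 lie lower.

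In the small subunit, Mrps34, a mitochondria-specific protein (chr17:24895116-24897502), had the lowest p. It stood at 13.001, 16.4 and 14.9 TPM in WT against 14.4, 7.52 and 8.10 TPM in G643W, with a log2 difference of -0.72 (SE 0.30) and an edgeR adjusted p of 0.511. G643W 1 lay inside the WT range by TPM. Of the exon bases of Mrps34, 63.4% are shared with Mapk8ip3 on the opposite strand and 37.0% with Nme3 on the same strand, and the sources used here do not say whether strand was used in counting, so its reads may be split among these genes. Mrps7, a bacterial-type protein of the small subunit head, stood at 14.0, 14.7 and 16.6 TPM in WT against 15.9, 9.29 and 11.5 TPM in G643W (log2 difference -0.48, SE 0.23). Mrps12, a protein of the decoding center, stood at 28.6, 41.6 and 25.6 TPM in WT against 36.1, 17.9 and 21.9 TPM in G643W (log2 difference -0.40, SE 0.31), and Mrps24 at 32.1, 39.2 and 30.5 against 32.2, 18.3 and 20.2 TPM (log2 difference -0.59, SE 0.29). For Mrps7, Mrps12 and Mrps24 alike, G643W 1 lay within the WT range by TPM and the other G643W libraries below it. By CPM, G643W 1 also lay below the WT range for Mrps7.

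Mrps6 differed most between libraries of one genotype and was singled out after its values were seen. It stood at 4.79, 8.70 and 8.20 TPM in WT against 7.80, 0.816 and 2.34 TPM in G643W, from 501, 956 and 866 reads and 685, 109 and 235 reads. Its level in G643W 2 was 0.122 times that in G643W 1, the lowest such ratio among the members. G643W 2 and 3 lay below the WT range and G643W 1 within it, and the log2 difference was -1.14 (SE 0.74, edgeR adjusted p of 0.590). Mrpl23, Mrps28, Mrps18b and Mrpl38 followed, with ratios of 0.238, 0.241, 0.275 and 0.294. Mrps6 shares 19.9% of its exon bases with Gm49711 and 10.4% with the myo-inositol transporter gene Slc5a3 on the same strand.

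The 3 paralogs of the bacterial S18 protein allow a comparison within a family. Mrps18b and Mrps18c are found in the small subunit, whereas Mrps18a, despite its name, is found in the large subunit of the mammalian ribosome. Mrps18a stood at 14.4, 15.4 and 14.0 TPM in WT against 16.8, 11.7 and 12.6 TPM in G643W (log2 difference -0.21, SE 0.22). Mrps18b stood at 21.9, 29.8 and 26.1 TPM in WT against 33.7, 6.49 and 15.0 TPM in G643W (log2 difference -0.88, SE 0.48), so its G643W libraries spanned both the highest and the lowest values. Mrps18c stood at 199, 268 and 195 TPM in WT against 274, 280 and 232 TPM in G643W (log2 difference 0.12, SE 0.21), a level that rests on the short transcripts named above. Its 638-base coding transcript stood at 16.1, 20.2 and 21.9 TPM in WT against 28.1, 23.1 and 21.6 TPM in G643W. All 3 edgeR adjusted p-values were above 0.05, and differences between the paralogs were not tested.

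Also named for the small subunit but placed elsewhere, Mrps30 is a protein of the large subunit in mammals and Mrps36 is known as a subunit of the 2-oxoglutarate dehydrogenase complex. Mrps30 stood at 6.10, 6.81 and 5.64 TPM in WT against 6.20, 3.77 and 4.93 TPM in G643W, and Mrps36 at 19.1, 24.4 and 15.2 against 20.6, 8.92 and 13.5 TPM. Their log2 differences were -0.42 (SE 0.23) and -0.54 (SE 0.37). Neither passed the edgeR test.

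Copies elsewhere in the genome limit some of these values. For 7 members, at least 50% of the length of a transcript matched another gene's transcript at 95% identity or more, and 33 members share exon bases with another gene. Mrpl23 is the extreme case. Its processed pseudogene Mrpl23-ps1 was assigned 38.7, 49.2 and 39.2 CPM in WT against 40.0, 15.5 and 21.7 CPM in G643W, which is 92.7% of the CPM of the pair, while Mrpl23 itself had between 0.933 and 3.92 CPM. The pair together had a log2 ratio of means of -0.70, against -0.44 for Mrpl23 alone. The place of Mrpl23 as the lowest member therefore depends on how reads were divided between the gene and its copy. Mrpl53 is identical over its matched length to Gm42688, a gene annotated as protein-coding that shares 88.0% of its exon bases and held 43.9% of the CPM of that pair. The copies of Mrpl22, Mrpl27, Mrpl42, Mrps10 and Mrps21 held between 0.0207% and 4.33%.

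Promoters of these genes are shown because the nuclear factors known to act on such genes have short recognition sequences. The part of these factors in the members' values was not tested. RefSeq promoter windows on GRCm38.p6, from 250 bases before to 50 bases after a start site, were found for 69 of the 78 members, 75 windows in all. The windows of Mrpl52 and of the 3 S18 paralogs are given 5' to 3' on the gene's strand, with capitals marking any match, on either strand, to an ETS-type core (CCGGAAG), the NRF1 sequence GCATGCGC, the YY1 sequence AAGATGG or its longer form AAGATGGCG, or the palindromic E-box CACGTG.
Mrpl52, chr14:54426659-54426958, plus strand: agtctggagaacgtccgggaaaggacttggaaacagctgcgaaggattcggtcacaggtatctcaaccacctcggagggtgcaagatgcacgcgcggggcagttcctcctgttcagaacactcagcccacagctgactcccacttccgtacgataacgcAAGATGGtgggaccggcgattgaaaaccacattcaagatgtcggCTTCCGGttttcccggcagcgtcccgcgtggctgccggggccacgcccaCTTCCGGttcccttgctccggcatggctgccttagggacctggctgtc
Mrps18a, chr17:46110754-46111053, plus strand: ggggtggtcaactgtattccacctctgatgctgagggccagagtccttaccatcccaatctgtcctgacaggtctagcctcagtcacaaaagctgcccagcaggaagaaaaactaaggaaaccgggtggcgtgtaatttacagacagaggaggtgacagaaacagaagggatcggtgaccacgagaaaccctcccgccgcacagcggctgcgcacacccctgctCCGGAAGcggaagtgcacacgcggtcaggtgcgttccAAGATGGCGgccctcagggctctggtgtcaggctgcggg
Mrps18b, chr17:35916391-35916690, minus strand: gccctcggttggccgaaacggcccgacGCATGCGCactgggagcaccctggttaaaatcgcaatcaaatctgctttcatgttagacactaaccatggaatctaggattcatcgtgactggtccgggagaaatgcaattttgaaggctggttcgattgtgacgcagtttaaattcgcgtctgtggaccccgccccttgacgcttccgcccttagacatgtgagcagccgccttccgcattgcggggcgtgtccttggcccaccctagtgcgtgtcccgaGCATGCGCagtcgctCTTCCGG
Mrps18c, chr5:100798509-100798808, plus strand: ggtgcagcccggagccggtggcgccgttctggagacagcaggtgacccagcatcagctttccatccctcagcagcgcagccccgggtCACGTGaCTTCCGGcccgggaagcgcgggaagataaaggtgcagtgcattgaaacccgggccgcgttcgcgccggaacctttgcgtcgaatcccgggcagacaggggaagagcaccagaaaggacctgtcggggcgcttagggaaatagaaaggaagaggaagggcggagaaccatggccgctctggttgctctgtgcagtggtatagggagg
Each of the 4 windows holds the ETS-type core, which in Mrpl52 occurs at 2 places, with first bases 47 before and 2 after the start site. Mrps18a has the longer YY1 form 11 bases after its start, Mrps18b holds the NRF1 sequence at 2 places, and Mrps18c holds the E-box.

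Over all 75 windows of members, the ETS-type core was present in 34.7%, against 8.86% of 32851 windows of any gene, 11.9% of 20098 windows of protein-coding genes and 36.8% of 68 windows of cytosolic ribosomal protein genes. Counted by gene, with a gene taken as holding the core when any of its windows did, the shares were 37.7% of 69 members, 9.93% of all genes, 13.4% of protein-coding genes and 41.4% of 58 cytosolic ribosomal protein genes. The NRF1 sequence was present in 10.7% of members' windows and 2.71% of all. It was present in 3.66% of protein-coding and 4.41% of cytosolic ribosomal protein windows. The YY1 sequence was present in 17.3% of members' windows and 6.34% of all, and in 6.31% of protein-coding and 17.6% of cytosolic ribosomal protein windows. Its longer form, which contains the shorter one, was present in 10.7%, 1.40%, 1.93% and 7.35% of these, in the same order. The E-box was present in 9.33% of members' windows and 7.15% of all, but 3 of the 7 matching windows of members are overlapping windows of Mrpl2. By gene, it was present in 5 of 69 members (7.25%), against 8.09% of all genes and 9.19% of protein-coding genes. At least 1 of the ETS, NRF1 and short YY1 sequences was present in 50.7% of members' windows, against 16.6% of all. These are matches of letters, with no test and no claim of binding.

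The factors that bind these sequences were themselves measured. Gabpb1, the partner subunit of the ETS factor Gabpa, stood at 5.92, 7.61 and 7.54 TPM in WT against 13.03, 13.3 and 11.6 TPM in G643W. By TPM, Gabpb1 was thus higher in every G643W library than in every WT library, against 9.61% of all genes tested. Its log2 difference by counts was 0.59 (SE 0.21), with an edgeR adjusted p of 0.493. Gabpa, Nrf1 and Yy1, given because their binding sequences were searched, had log2 differences of -0.06 (SE 0.29), 0.23 (SE 0.18) and -0.13 (SE 0.19). Myc and Pprc1 differed widely between libraries of one genotype and were picked out after their values were seen. Myc stood at 28.0, 32.1 and 30.3 TPM in WT against 46.5, 3.33 and 13.6 TPM in G643W, and Pprc1, a coactivator related to PGC-1 alpha, at 13.4, 12.3 and 15.2 against 18.2, 1.91 and 7.58 TPM. By TPM, G643W 1 was the highest and G643W 2 the lowest library for both. By CPM the same held for Myc. For Pprc1, WT 3 was the highest library by CPM (43.6), and G643W 1 (35.3) lay within the WT range. Of the 16 tested genes of mitochondrial transcription and its regulators, 12 had a negative log2 difference, Ssbp1 among them (-0.64, SE 0.32), and none passed the edgeR or DESeq2 threshold. By CPM, 2 of the 16 were higher in every G643W library (12.5%, against 7.05% of all genes tested) and 0 were lower in every one (against 8.89%).

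Most other genes of the mitochondrial translation apparatus also had negative estimates, against 50.8% of all genes tested. None of the genes in the following lists passed the edgeR threshold in either direction. At an edgeR unadjusted p under 0.05 there were 3 of the 25 assembly factors and 0 of the other lists, against 9.66% of all genes tested. DESeq2 called 1 assembly factor, Ddx28, against 1.72% of the genes it tested. Of 5 further mitoribosomal proteins not named by the Mrp rule, 3 had estimates below 0 (60%, near the share of all genes) and the median was -0.19. Gadd45gip1 stood at 4.31, 5.28 and 4.11 TPM in WT against 4.45, 1.58 and 2.52 TPM in G643W (log2 difference -0.82, SE 0.37), and Ptcd3, a small subunit protein, had a log2 difference of -0.24 (SE 0.27). Dap3, also of the small subunit and singled out after its values were seen, was between 35.9 and 44.8 TPM in all 6 libraries (log2 difference 0.02, SE 0.18). Of 15 translation factors, 14 were negative, with a median of -0.26. They include the elongation factor Tufm (log2 difference -0.49, SE 0.23) and Slirp, a stabilizer of mitochondrial mRNAs (-0.56, SE 0.26). Of 20 genes for mitochondrial aminoacyl-tRNA synthetases and the amidotransferase that charges glutamine tRNA, 18 were negative, with a median of -0.39, with Fars2 at -0.58 (SE 0.27) and Pars2 at -0.75 (SE 0.36).

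Among 25 assembly factors, which fold, modify and join the ribosomal RNAs and proteins, 21 were negative, with a median of -0.36. The RNA helicase Ddx28, needed for large subunit assembly, stood at 7.97, 4.31 and 2.33 TPM in WT against 1.99, 0.814 and 1.57 TPM in G643W, with every G643W library below every WT library but a wide range within WT. Its log2 difference was -1.85 (SE 0.51), with an adjusted p of 0.454 by edgeR and of 0.0410 by DESeq2. Rbfa, which acts in the maturation of the small subunit rRNA, stood at 36.6, 27.2 and 33.2 TPM in WT against 24.7, 21.8 and 19.6 TPM in G643W (log2 difference -0.65, SE 0.19), again without overlap. By TPM, 5.84% of all genes tested were lower in every G643W library. By CPM, 4 of the 25 assembly factors were lower in every G643W library (16%, against 8.89% of all genes tested) and 1 was higher (4%, against 7.05%).

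**Figure D5:**
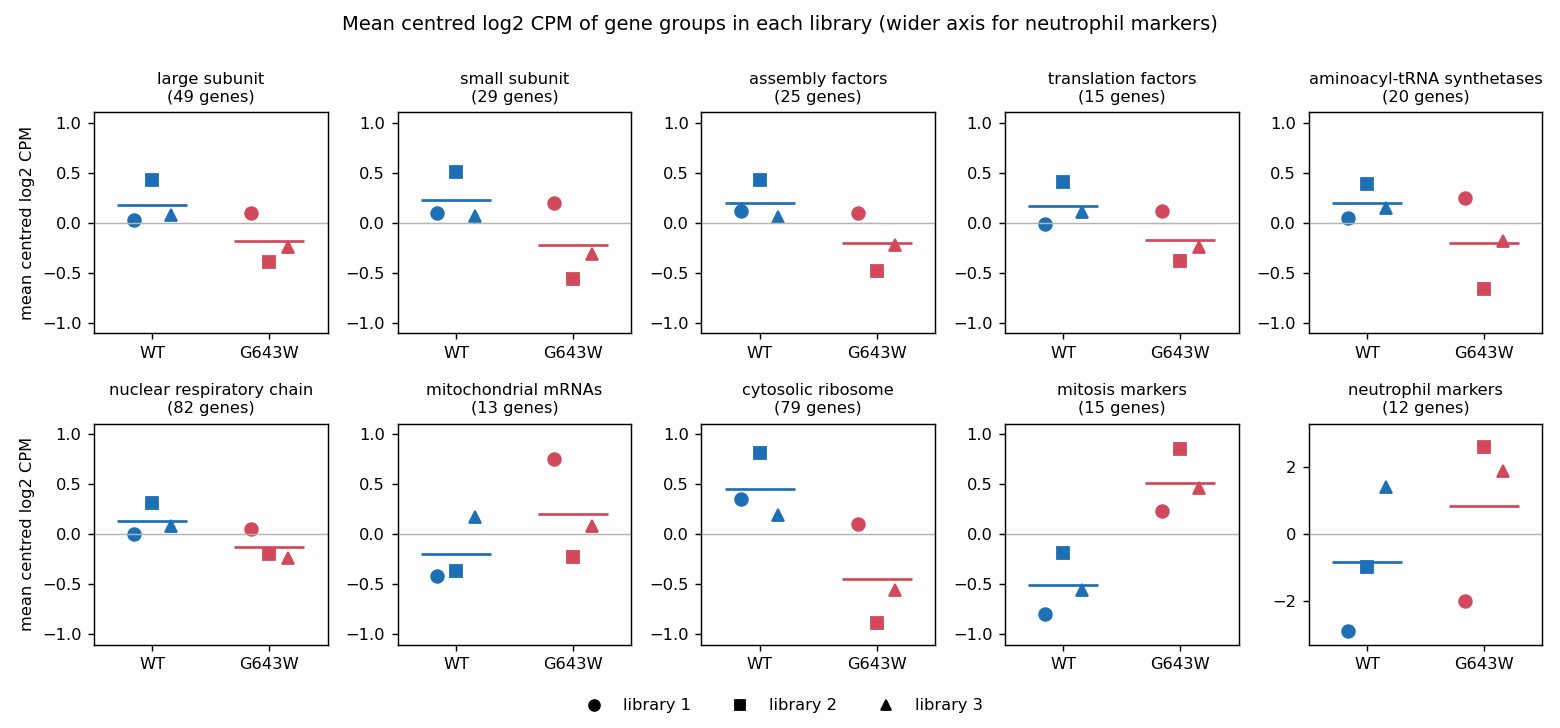
Mean centred log2 CPM of 10 groups of genes in each library (points, shaped by library number) with the mean of each genotype (line); the neutrophil panel has a wider axis. WT 2 is highest and G643W 2 lowest for the mitochondrial ribosome, its assembly and translation factors and the synthetases, and also for the cytosolic ribosome. G643W 1 is the highest library for the mitochondrially encoded mRNAs.

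Genes of the ribosome of the cytosol and the mRNAs that mitochondrial ribosomes translate are given beside these values for scale; the differences between the groups were not tested. The 79 cytosolic ribosomal protein genes had a median log2 difference of -0.85. All 79 were negative, against 50.8% of all genes tested. By CPM, 50 were lower in every G643W library (63.3%, against 8.89% of all genes tested). None passed the edgeR threshold, while 45 had an unadjusted p under 0.05 (against 9.66%) and DESeq2 called 2 (against 1.72% of the genes it tested). Their centred averages were 0.35, 0.80 and 0.19 in WT and 0.10, -0.89 and -0.55 in G643W, so that here G643W 1 was below all 3 WT libraries, which it was not for the mitochondrial ribosomal proteins. WT 2 was the highest library for 75 of the 79 and G643W 2 the lowest for 73, against 63 and 47 of the 78 mitochondrial members. The 82 nuclear genes of the respiratory chain had a median of -0.25, with 68 negative (82.9%, against 50.8% of all genes tested). At an unadjusted p under 0.05 there were 8, close to the share of 9.66% over all genes tested, and edgeR and DESeq2 called none. The 13 mitochondrially encoded mRNAs, the only messages that the mitochondrial ribosome reads, had a median of 0.54, with 12 positive. Of these 13, 1 had an unadjusted p under 0.05 (against 9.66% of all genes tested), and edgeR and DESeq2 called none. Mt-Co2 stood at 701, 714 and 881 TPM in WT against 1820, 1022 and 1171 TPM in G643W (log2 difference 0.72, SE 0.28, edgeR adjusted p of 0.503), and mt-Nd4l at 657, 708 and 1332 against 2449, 1047 and 1651 TPM (0.83, SE 0.37). The order of libraries was thus not that of the ribosomal proteins: G643W 1 was the highest for 12 of the 13 messages. Mitosis markers, a measure of cycling cells, had a median log2 difference of 1.02, larger in size than that of the members. All 15 genes were positive and at an unadjusted p under 0.05 (against 9.66% of all genes tested), with none called by edgeR and 2 by DESeq2. All 15 were higher in every G643W library by TPM (against 9.61% of all genes tested) and 13 by CPM (86.7%, against 7.05%). Their centred averages were -0.79, -0.19 and -0.55 in WT and 0.23, 0.85 and 0.45 in G643W. Their part in the values of the ribosomal protein genes was not tested.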

How the data were processed

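RNA from 3 Asxl1WT and 3 Asxl1G643W/G643W blast samples had been made into TruSeq V2 libraries, per the labels' protocols. Per the submitters' processing notes, the authors used bcl2fastq and Salmon 0.12.0 with the builds mm10 and GRCm38.p6. Salmon's options and index were not given in the sources used here. The deposited tables hold estimated counts (expected counts, not whole numbers) and TPM per transcript. Both were summed per gene over GENCODE M21, which left out 112 unmatched transcripts (at most 0.0365% of reads), and the sums of counts were rounded. Genes passing filterByExpr (minimum count 10) were tested with edgeR 4.0.16 in R 4.3.3 (TMM scaling, quasi-likelihood F test, genotype as the only term, threshold 0.05 after Benjamini-Hochberg adjustment), after a test of the script on simulated data; all 78 members passed the filter, with 83 to 10930 reads. The SE is the log2 difference divided by the square root of F. DESeq2 1.42.0 and limma 3.58.1 (log2 of TPM plus a pseudocount of 1) were alternatives. Copies were searched with BLAST+ 2.17.0. Libraries of one genotype differed by more than sampling noise. Members named individually were those with the lowest p (up to 8 per direction), the 3 highest and 3 lowest by TPM and 12 with set roles; related lists gave the 2 lowest p each, and exceptions are marked. The members, lists and rules were chosen with earlier results of these data known, and the groups by bacterial counterpart after the values were seen.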

Additional observations from a re-analysis of the deposited data

How the results depend on the processing

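Under 13 alternatives no member passed the threshold and the median log2 difference of the members stayed negative, from -0.48 without G643W 1 to -0.19 without WT 2. It was -0.27 both by limma on log2(TPM + 1) and with protein-coding genes alone. The number of all genes past the threshold was 25, and became 104 with no filter, 385 with DESeq2, 10 with length-scaled counts, 2 with protein-coding genes alone and between 0 and 16 with 1 library left out. The number of members lower in every G643W library was 14, and became 2 by limma on log2(TPM + 1), 8 with protein-coding genes alone and between 12 and 49 with 1 library left out, against 10.8% to 20.3% of all genes in those fits (49 without G643W 1 and 29 without WT 1, which is 62.8% and 37.2% of members against 20.3% and 14% of all genes). The number higher in every G643W library was between 0 and 2 in those fits. Of 546 values for 42 named genes, 532 kept their direction and their side of the threshold. Mrpl45 turned to -0.0060 with no filter and to -0.022 with length-scaled counts, and Mrpl10 to 0.018 with protein-coding genes alone. With 1 library left out, 6 genes changed sign in at least 1 fit, Mrpl45 ranging from -0.080 to 0.13, Mrpl10 from -0.185 to 0.066, Mrpl18 from -0.084 to 0.292, Mrpl57 from -0.186 to 0.359, Mrpl49 from -0.110 to 0.217 and Ptcd3 from -0.414 to 0.066. The cause was not tested. The labels number the libraries 1 to 3 in each genotype and do not say whether the numbers pair them. Deviations of same-numbered libraries correlated at 0.11, -0.16 and 0.18, within the range of -0.28 to 0.23 for libraries of different number. With 3 libraries per genotype, these values cannot decide whether the libraries are paired. With the replicate block 0 genes passed and 71 members were negative, with a median of -0.37. Every member had at least 83 reads in each library.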

Other observations

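The processed pseudogenes of the family other than Mrpl23-ps1 held few reads. Mrps36-ps2 stood between 1.11 and 2.57 CPM over the 6 libraries and Mrps36-ps1 between 0 and 0.947 CPM, while Mrps36-ps3 had 1 read, in WT 1, and Mrpl48-ps had 0 reads in every library. The head-to-head members Mrps11 (chr7:78783119-78792989, plus strand) and Mrpl46 (chr7:78775236-78783531, minus strand) share 173 exon bases at their 5' ends. Mrps11 stood at 17.4, 18.5 and 16.4 CPM in WT against 18.2, 10.6 and 12.4 CPM in G643W, and Mrpl46 at 14.4, 19.3 and 14.1 against 20.6, 12.4 and 14.4 CPM. In both, G643W 2 was the lowest library and G643W 1 lay within or above the WT range. The pair was picked out after its values were seen.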
